A study of Mus musculus with 12 samples.

Results

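Transcript levels of glutathione, NRF2 and antioxidant genes were examined in pigment-laden and other macrophages of mouse skin. The group comprises 43 genes of glutathione use and synthesis, thioredoxin and peroxide metabolism, carbonyl reduction, heme breakdown, NADPH supply and their regulation. A gene was represented by the probe set that carried its symbol alone in the platform annotation, and by the brightest such probe set where it had several. That gave 41 of the 43 genes among 19938 genes in all. Prdx6 and Akr1b3 had no probe set with their symbol alone in the annotation used and were not analysed here.

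The cells came from the skin of untreated C57BL/6 wild-type mice kept under specific-pathogen-free conditions. The sort of all 4 groups took cells with CD11b and CD64 on their surface and without CD24, CCR2 and Ly6C. Each of the cell kinds, melanophages and macrophages, was divided by MHC-II into a negative and a positive group, with 3 arrays a group. A melanophage is a macrophage that holds ingested melanin, and its labelled side scatter is high. The labels of the other macrophages disagree, with high side scatter in the titles and low in the phenotype, and groups were formed without it. Age and sex of the mice were not used here, and the labels do not state whether replicate arrays stand for separate animals. What the p-values measure is thus the spread among these samples alone, and that spread may be technical.

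Glutathione is a cysteine-containing tripeptide that reduces peroxides through glutathione peroxidases and is joined to reactive compounds by glutathione transferases. Its synthesis depends on cysteine, which many cells obtain by importing cystine through the exchanger that Slc7a11 encodes. NRF2, the product of Nfe2l2, is a transcription factor that KEAP1 holds at low level until oxidants or electrophiles release it. It then binds antioxidant response elements of genes such as Nqo1, Gclm, Srxn1 and Txnrd1, while BACH1 competes for the same elements. Macrophages rely on these enzymes when they take up iron, heme, dying cells or pigment.

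Values are log2 expression values made with RMA (robust multi-array average), so a difference of 1 is a 2-fold change. Calls required an adjusted p under 0.05 (limma, two-sided, Benjamini-Hochberg over the 19938 genes), and differences carry the standard error (SE) of that fit. Array medians over all probe sets lay between 2.975 and 3.078. Genes with all group means under 3.5, here termed dim, were Gsta3, Gsta4, Gstt1, Mgst2, Nqo1 and Me1. Arrays correlated with their group mates at a mean of 0.9643 to 0.9799. The arrays farthest from their mates were replicate 1 of the MHC-II-negative and replicate 3 of the MHC-II-positive macrophages. Of 14 macrophage markers 13 were measured, none was dim, and their mean log2 value was between 9.32 and 9.65 on all arrays. Of the marker genes measured, 10 of 13 for melanocytes, 9 of 11 for keratinocytes and 8 of 9 for endothelium were dim. Adipocyte markers (3 of 7 dim) and mast cell markers (4 of 8 dim) had mean log2 values of 4.36 to 5.19 and 3.19 to 4.13.

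The called differences were few. Gstm1 and Gstm3 were higher in melanophages than in macrophages, while Slc7a11 was higher, and Nupr1, Akr1b8 and Cbr3 lower, in cells with MHC-II than in cells without it. The calls of Gstm1 and Gstm3 were narrow, each held in only 2 of 12 fits with 1 array left out. Which transcript the Gstm3 values measured is uncertain, so these 2 calls may share signal. In these sorted pools, a change in the share of a cell type and a change of RNA per cell cannot be told apart. Between melanophages and macrophages, averaged over MHC-II class, 2 of 41 members were called, both higher, where 0.12% of all genes were called. Between MHC-II classes, averaged over cell kind, 4 of 41 were called, where 0.762% of all genes were. The members were chosen with earlier results of these data known, so their shares beside those of all genes are descriptive and test nothing.

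**Figure D1:**
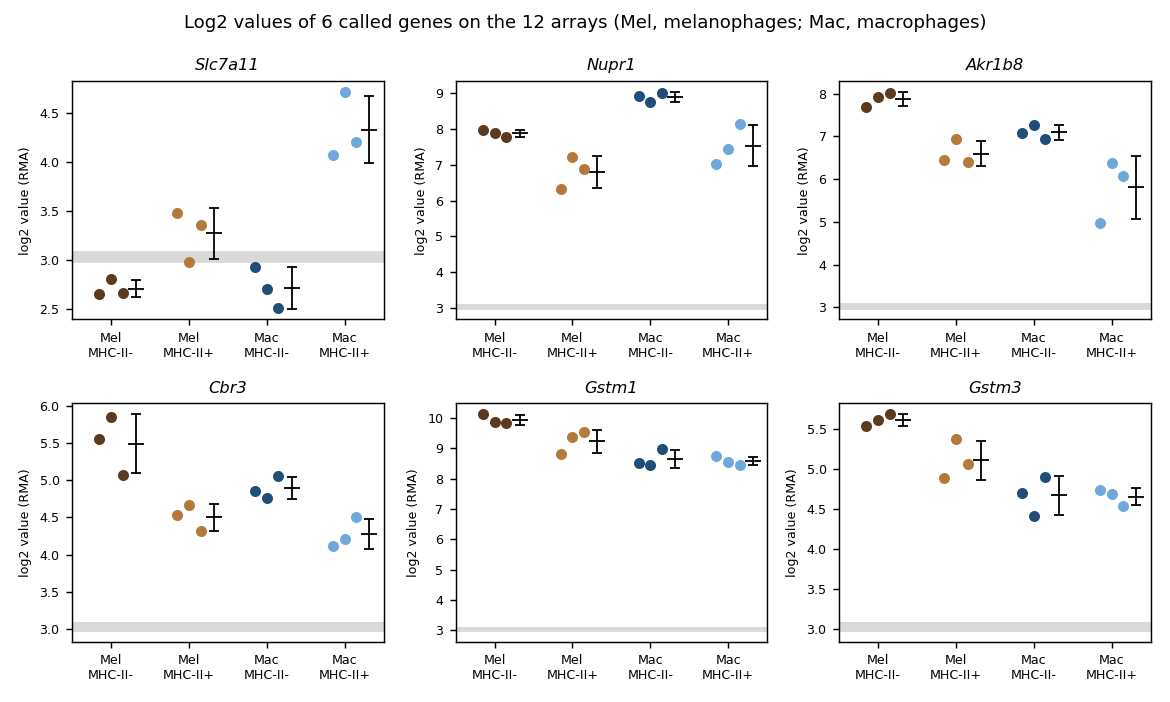
Log2 values (vertical axis, RMA) of the 6 called genes on each of the 12 arrays by group; points are arrays, the bar and whiskers are the mean and SD of 3 arrays, and the grey band spans the medians of the arrays (2.975 to 3.078). Slc7a11 is above the band on all 3 arrays of MHC-II-positive macrophages and below it on all arrays of both MHC-II-negative groups.

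At an unadjusted p under 0.05, 15 of 41 members (36.6%) differed between melanophages and macrophages, 7 higher and 8 lower, against 7.52% of all genes. Because the members were chosen with earlier results known, this is no test of enrichment. Among the genes brighter than the median gene the shares were 14 of 35 members (40%) and 11.4% of 9969 genes. The 7 higher were Gstm1, Gstm3, Gsto1, Mgst1, Cbr3, Akr1a1 and Akr1b8, and the 8 lower were Gstp1, Gstt1, Ephx1, Hmox1, Slc7a11, Gpx1, Nupr1 and Pgd. The members thus went both ways, and their median log2 difference was 0.065 against 0.011 over all genes, while the median absolute difference was 0.241 against 0.067, or 0.262 against 0.111 among the brighter genes. In 4 members the arrays of melanophages lay above those of macrophages within both MHC-II classes (0.707% of all genes), namely Gstm1, Gstm3, Akr1a1 and Akr1b8. The reverse order was seen in 0 members (0.456% of all genes).

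Between MHC-II classes 12 of 41 members (29.3%) had an unadjusted p under 0.05, 6 in each direction, against 9.23% of all genes. The same limit on the choice of members holds here. Among the genes brighter than the median gene the shares were 12 of 35 members (34.3%) and 14% of 9969 genes. The median absolute difference of the members was 0.094 against 0.073 over all genes, and 0.117 against 0.115 among the brighter ones, so in size the typical member was close to the background here. Slc7a11, Gclc, Sod2, Nfe2l2, Tkt and Pgd were the 6 higher in MHC-II-positive cells, and Gstm1, Gstm3, Mgst3, Cbr3, Akr1b8 and Nupr1 the 6 lower. Arrays of both classes did not overlap within either cell kind for 1 member that was higher, Slc7a11 (1.11% of all genes), and for 3 that were lower, Nupr1, Akr1b8 and Cbr3 (0.762% of all genes). The median log2 difference of the members was 0.000, against -0.024 over all genes.

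**Figure D2:**
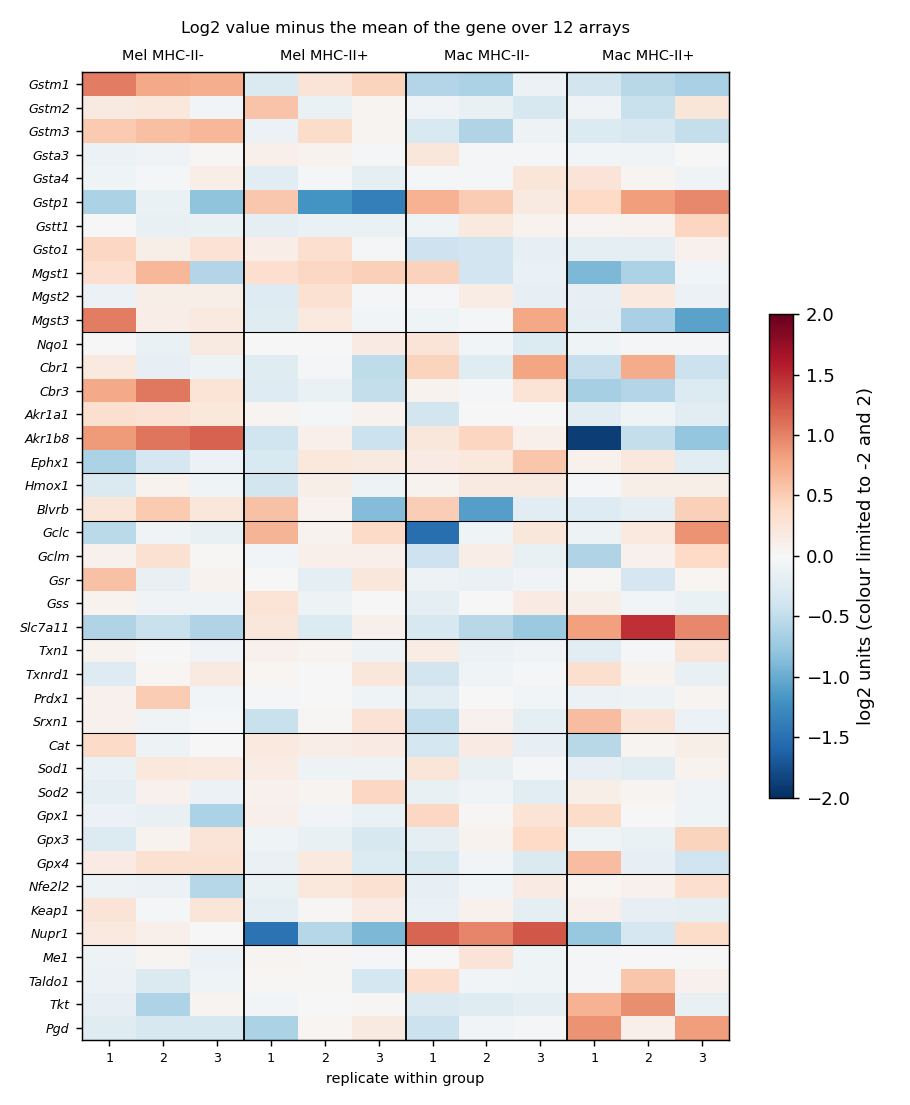
Log2 value of each of the 41 measured genes (rows, grouped by role) minus its mean over the 12 arrays (columns, by group and replicate), with colours limited to 2 in either direction. Gstm1, Gstm3, Cbr3 and Akr1b8 are reddest in MHC-II-negative melanophages, and Slc7a11 in MHC-II-positive macrophages.

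The glutathione transferases, which attach glutathione to reactive compounds, gave both calls between the cell kinds. Of the 11 transferases 2 were called higher and 0 were called lower. Their median log2 difference was 0.275, and 7 of 11 were above 0, as were 10919 of 19938 genes. Gstm1, a cytosolic transferase of the mu class, had log2 values of 10.12, 9.85 and 9.83 in MHC-II-negative and 8.81, 9.36 and 9.54 in MHC-II-positive melanophages. In macrophages it had 8.51, 8.46 and 8.98 in the MHC-II-negative and 8.74, 8.55 and 8.45 in the MHC-II-positive arrays. Every melanophage array was thus above every macrophage array of its own MHC-II class. The level of Gstm1 was 1.96-fold higher in melanophages (log2 difference 0.97 ± 0.14 SE, 95% interval 0.66 to 1.28, adjusted p = 0.0404). Within the MHC-II-negative class its log2 difference was 1.28 ± 0.19 (adjusted p = 0.109) and within the MHC-II-positive class 0.66 ± 0.19 (adjusted p = 0.58), neither called alone. The call was narrow: among fits that left out 1 array each, Gstm1 was called only without replicate 1 of MHC-II-positive melanophages (adjusted p = 0.0137) or replicate 3 of MHC-II-negative macrophages (adjusted p = 0.0411). Without any 1 of the other 10 arrays its adjusted p was 0.0508 to 0.105, with log2 differences of 0.89 to 1.01.

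Gstm3, another mu class transferase, had log2 values of 5.53, 5.61 and 5.68 in MHC-II-negative and 4.89, 5.37 and 5.06 in MHC-II-positive melanophages. The macrophages had 4.70, 4.41 and 4.90 without MHC-II and 4.74, 4.69 and 4.53 with it. As for Gstm1, no array overlapped within a class, and the MHC-II-negative melanophages were highest. Gstm3 was 1.62-fold higher in melanophages (log2 difference 0.70 ± 0.10 SE, adjusted p = 0.0404). With 1 array left out, it was called only without the same arrays as Gstm1 (adjusted p = 0.0382 and 0.0452), and without any 1 of the other 10 arrays its adjusted p was 0.0521 to 0.0991.

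Which transcript the values of Gstm3 measured is uncertain. Numbers of probe sets on this array mostly follow gene order, and for 39 of 41 members most neighbours by number were genes of the same chromosome. The brighter Gstm3 probe set, used above, had 0 of 10 neighbours on the chromosome of Gstm3, and the brighter Prdx1 probe set 0 of 9 on that of Prdx1. A dimmer Gstm3 probe set, numbered among the mu class genes, had values of 3.32, 3.24 and 2.97 in MHC-II-negative melanophages and 3.26, 3.37 and 3.00 in MHC-II-positive ones. In macrophages its values were 2.90, 3.02 and 2.67 without MHC-II and 3.02, 3.17 and 2.95 with it, all close to the array medians. Its log2 difference between melanophages and macrophages was 0.24 ± 0.09 (unadjusted p = 0.0294), in the same direction as that of the brighter set. Between MHC-II classes the brighter set gave -0.26 and the dimmer one 0.11. The mu class genes are also close copies of each other, so signal may be shared between them.

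**Figure D3:**
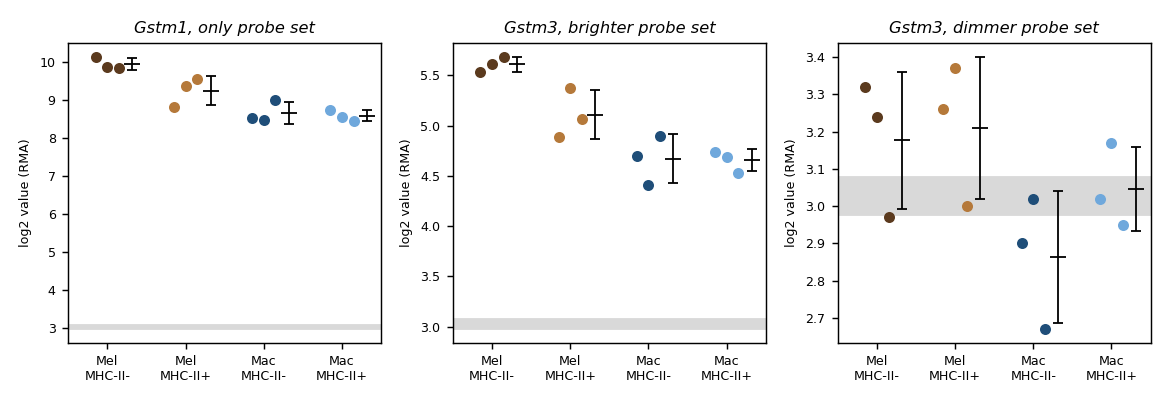
Log2 values (vertical axes, RMA, each panel with its own scale) of the Gstm1 probe set and of both Gstm3 probe sets on the 12 arrays; points are arrays, bars and whiskers the mean and SD of 3 arrays, and the grey band the range of array medians. The brighter Gstm3 set is highest in MHC-II-negative melanophages, as Gstm1 is, and the dimmer one lies within 0.5 of the band.

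Gstp1, the pi class transferase, had the largest difference of any member between the cell kinds but was not called. Its log2 values were 6.76, 7.26 and 6.60 in MHC-II-negative and 7.94, 6.21 and 6.03 in MHC-II-positive melanophages. Macrophages had 8.10, 7.91 and 7.58 without MHC-II and 7.79, 8.23 and 8.36 with it. Replicate 1 of the MHC-II-positive melanophages lay with the macrophages, and the other 5 melanophage arrays lay below all 6 macrophage arrays. The log2 difference of Gstp1 was -1.19 ± 0.30 SE (adjusted p = 0.266). Without replicate 1 of the MHC-II-positive melanophages it was -1.50 (adjusted p = 0.0137). That array was singled out by its Gstp1 value, so leaving it out had to enlarge the difference and gives it no support. Probe sets annotated with both Gstp1 and Gstp2 were left out, and signal of these close copies may be shared.

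Gsto1, an omega class transferase, had log2 values of 5.51, 5.22 and 5.39 in MHC-II-negative and 5.23, 5.43 and 5.07 in MHC-II-positive melanophages. Macrophages had 4.68, 4.72 and 4.94 without MHC-II and 4.92, 4.91 and 5.19 with it. The groups were apart in the MHC-II-negative class and overlapped in the MHC-II-positive class, with a log2 difference of 0.42 ± 0.09 (adjusted p = 0.169).

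Mgst3, a microsomal transferase, had values of 6.62, 5.73 and 5.79 in MHC-II-negative and 5.35, 5.78 and 5.54 in MHC-II-positive melanophages, and 5.51, 5.56 and 6.36 and then 5.41, 4.94 and 4.52 in macrophages. It was lower in MHC-II-positive cells by -0.67 ± 0.22 on the log2 scale, which was not called (adjusted p = 0.32), and the classes overlapped in melanophages. Mgst1, which ranged from 6.81 to 8.37, had a log2 difference between cell kinds of 0.54 ± 0.23 (adjusted p = 0.639). The remaining transferases were near the array medians. Gstm2 ranged from 2.94 to 3.95, and Gsta3, Gsta4, Gstt1 and Mgst2 did not exceed 3.33 on any array.

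Among the 5 genes of glutathione synthesis, recycling and cystine import, 1 was called between MHC-II classes. Slc7a11, the light chain of the cystine and glutamate exchanger, had log2 values of 2.65, 2.81 and 2.66 in MHC-II-negative and 3.48, 2.98 and 3.36 in MHC-II-positive melanophages. In macrophages they were 2.93, 2.70 and 2.51 without MHC-II and 4.07, 4.72 and 4.21 with it. Both MHC-II-negative groups had a mean of 2.71 and lay below the array medians, the MHC-II-positive melanophages lay within or slightly above them, and the MHC-II-positive macrophages were clearly highest. Averaged over cell kind, Slc7a11 was 2.13-fold higher in MHC-II-positive cells (log2 difference 1.09 ± 0.13 SE, adjusted p = 0.00267). Because the lower groups lay below the array medians, this fold may understate the change. Slc7a11 passed under all 22 alternative settings in which it was tested, with adjusted p between 0.000211 and 0.013. The filter at log2 value 5 in at least 3 arrays removed it, as its highest value was 4.72.

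Within macrophages alone Slc7a11 was 3.07-fold higher in MHC-II-positive cells (log2 difference 1.62 ± 0.18, adjusted p = 0.00383), the 1 member called there, where 0.341% of all genes were called. With only the macrophage groups in the fit its adjusted p was 0.079. Within melanophages its log2 difference was 0.57 ± 0.18 (adjusted p = 0.565), and 0 members were called in that comparison with limma, where 0.211% of all genes were. The difference between these 2 effects, the interaction, was -1.05 ± 0.26 for Slc7a11, with an unadjusted p of 0.0021 and an adjusted p of 1, so a difference between the cell kinds was not shown. Among MHC-II-positive cells alone, Slc7a11 was lower in melanophages by -1.06 ± 0.18 (adjusted p = 0.143).

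The catalytic and modifier subunits of glutamate-cysteine ligase, the rate-limiting step of glutathione synthesis, were not called. Gclm, the modifier, had values of 5.12, 5.35 and 5.06, then 4.99, 5.14 and 5.14 in MHC-II-negative and MHC-II-positive melanophages, and 4.62, 5.17 and 4.89, then 4.43, 5.12 and 5.43 in the corresponding macrophages. Its groups overlapped throughout, and the 95% interval of the MHC-II difference was -0.34 to 0.35. Gclc, the catalytic subunit, varied from 3.60 to 6.02, with the lowest value on replicate 1 of MHC-II-negative macrophages. Its log2 difference between MHC-II classes was 0.72 ± 0.29 (adjusted p = 0.462). Gsr, the glutathione reductase, ranged from 3.39 to 4.31 and Gss, the second synthesis enzyme, from 3.38 to 3.85, and neither was called.

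Of the 6 measured quinone, carbonyl and epoxide enzymes, 0 were called between the cell kinds (4 at an unadjusted p under 0.05) and 2 were lower in MHC-II-positive cells. Akr1b8, an aldo-keto reductase, had log2 values of 7.70, 7.92 and 8.02 in MHC-II-negative and 6.44, 6.94 and 6.41 in MHC-II-positive melanophages. In macrophages the values were 7.08, 7.28 and 6.94 without MHC-II and 4.97, 6.37 and 6.08 with it. The MHC-II-negative arrays were higher within each cell kind, and melanophages were higher within each class. Akr1b8 was 2.44-fold lower in MHC-II-positive cells (log2 difference -1.29 ± 0.21 SE, adjusted p = 0.0217), by -1.28 ± 0.30 in melanophages and -1.29 ± 0.30 in macrophages. The call was lost without replicate 2 or 3 of MHC-II-negative melanophages, replicate 1 or 3 of MHC-II-positive melanophages or replicate 2 of MHC-II-negative macrophages (adjusted p = 0.0538 to 0.0702). It was also lost without both arrays farthest from their group mates (adjusted p = 0.0602). Between the cell kinds its log2 difference was 0.79 ± 0.21 (adjusted p = 0.335).

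Cbr3, a carbonyl reductase, had log2 values of 5.55, 5.85 and 5.07 in MHC-II-negative and 4.53, 4.66 and 4.31 in MHC-II-positive melanophages. In macrophages they were 4.86, 4.76 and 5.06 without MHC-II and 4.12, 4.21 and 4.51 with it. The classes did not overlap within either cell kind. Cbr3 was 1.74-fold lower in MHC-II-positive cells (log2 difference -0.80 ± 0.13 SE, adjusted p = 0.0217). It lost the call without replicate 1 of MHC-II-negative melanophages, replicate 3 of MHC-II-positive melanophages, replicate 3 of MHC-II-negative macrophages, or replicate 1 or 2 of MHC-II-positive macrophages (adjusted p = 0.0559 to 0.0655).

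Akr1a1, an aldehyde reductase, had values of 10.90, 10.87 and 10.79 in MHC-II-negative and 10.64, 10.55 and 10.65 in MHC-II-positive melanophages, and 10.21, 10.58 and 10.58 and then 10.36, 10.50 and 10.36 in macrophages. Its melanophage arrays were higher within each class by a small margin, with a log2 difference of 0.30 ± 0.07 (adjusted p = 0.236). Nqo1, a quinone reductase and a standard readout of NRF2 activity, was at 2.46, 2.33 and 2.65, then 2.48, 2.46 and 2.63 in melanophages without and with MHC-II. In macrophages it was at 2.73, 2.42 and 2.19, then 2.39, 2.45 and 2.43, so all its values were below the array medians. Its 95% intervals were -0.14 to 0.27 between the cell kinds and -0.19 to 0.21 between MHC-II classes, on values near the lower end of the scale. Ephx1, the microsomal epoxide hydrolase, had a log2 difference between cell kinds of -0.68 ± 0.19 in the MHC-II-negative class (adjusted p = 0.567) and of 0.00 ± 0.19 in the MHC-II-positive class. Cbr1 ranged from 4.38 to 5.67 with no call.

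**Figure D4:**
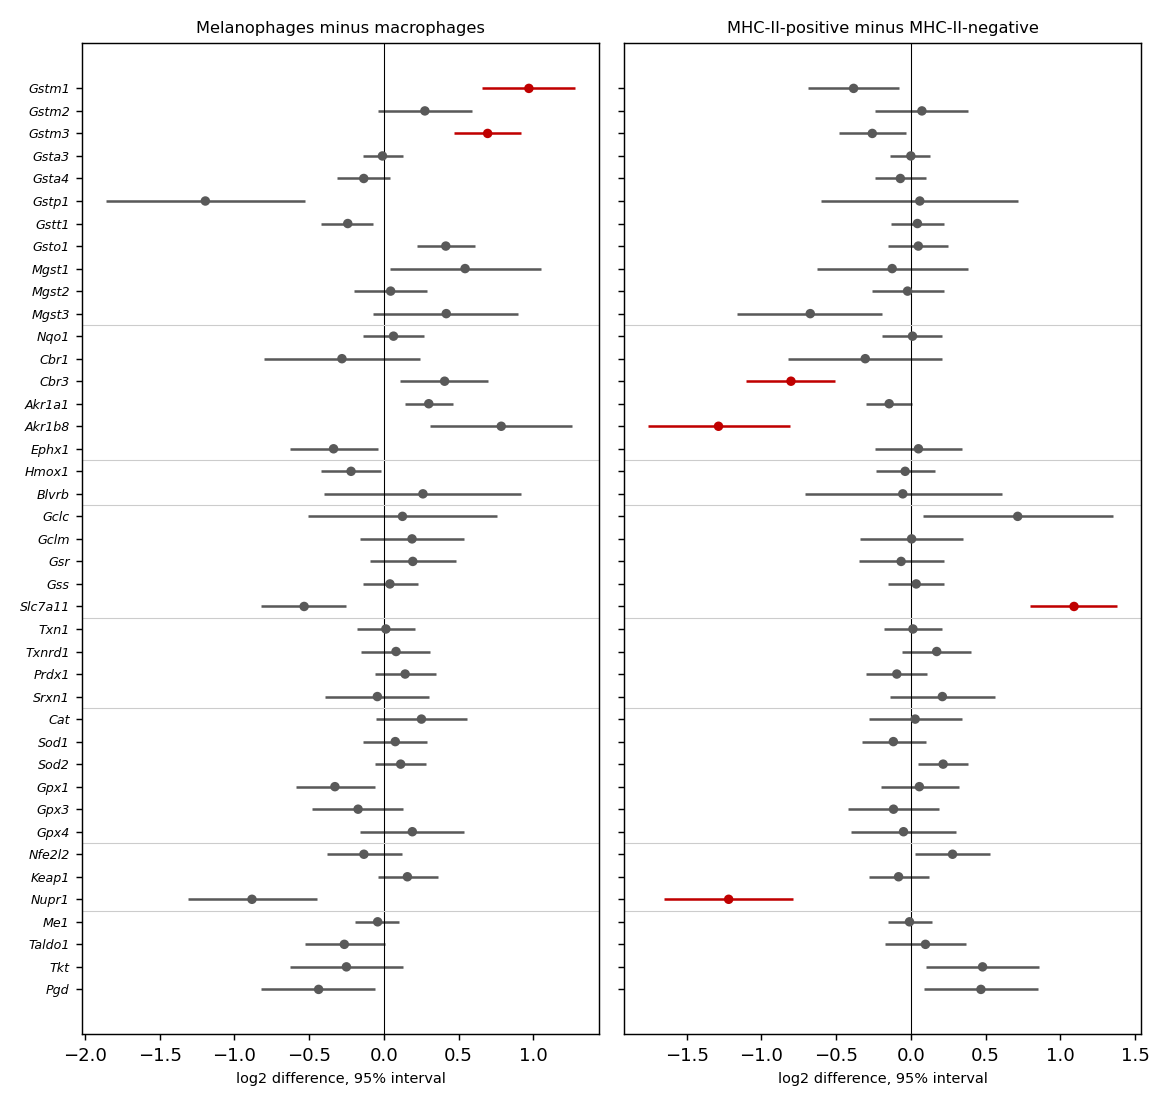
Log2 differences of the 41 measured genes with 95% intervals (horizontal axes), melanophages minus macrophages on the left and MHC-II-positive minus MHC-II-negative cells on the right, each averaged over the other factor; red marks genes called over all 19938 genes. Gstm1 and Gstm3 are red on the left, and Cbr3, Akr1b8, Slc7a11 and Nupr1 on the right.

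The regulators differed in level and in pattern. Nupr1, a small stress-induced nuclear protein, had log2 values of 7.98, 7.88 and 7.77 in MHC-II-negative and 6.31, 7.21 and 6.89 in MHC-II-positive melanophages. In macrophages it had 8.94, 8.75 and 9.02 without MHC-II and 7.02, 7.45 and 8.15 with it. It was lower on every MHC-II-positive array than on the MHC-II-negative arrays of the same cell kind. Nupr1 was 2.33-fold lower in MHC-II-positive cells (log2 difference -1.22 ± 0.19 SE, adjusted p = 0.0178), and it lost the call without replicate 1 of MHC-II-negative melanophages (adjusted p = 0.0548) or replicate 3 of MHC-II-negative macrophages (adjusted p = 0.0524). Between melanophages and macrophages its log2 difference was -0.88 ± 0.19 (adjusted p = 0.181).

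Nfe2l2, which encodes NRF2, was among the brighter members. Its values were 10.68, 10.66 and 10.21 in MHC-II-negative and 10.64, 10.99 and 11.09 in MHC-II-positive melanophages, and 10.62, 10.73 and 10.94 and then 10.81, 10.86 and 11.11 in macrophages. All groups overlapped with another, and the log2 difference between MHC-II classes was 0.28 ± 0.11 (adjusted p = 0.47). Keap1, its inhibitor, had values of 3.64, 3.36 and 3.62, then 3.19, 3.41 and 3.54 in melanophages without and with MHC-II, and 3.25, 3.46 and 3.20, then 3.49, 3.22 and 3.19 in macrophages. Its groups overlapped, and its intervals were -0.04 to 0.36 between cell kinds and -0.28 to 0.12 between MHC-II classes.

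Hmox1, the heme oxygenase that opens the heme ring, was bright in every group. It had values of 11.60, 11.95 and 11.80, then 11.52, 12 and 11.79 in melanophages without and with MHC-II, and 11.95, 12.07 and 12.07, then 11.86, 12.01 and 12.01 in macrophages. The whole range was 11.52 to 12.07, and the log2 difference between cell kinds was -0.22 ± 0.09 (adjusted p = 0.612). Blvrb, a biliverdin reductase, ranged from 6.16 to 7.85 and was not called.

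No gene of the thioredoxin system or of the catalase, dismutase and peroxidase group was called in either averaged comparison. Between cell kinds 1 of these 10 genes, Gpx1, and between MHC-II classes 1, Sod2, had an unadjusted p under 0.05. Txn1, thioredoxin, ranged from 10.47 to 10.95, and its log2 differences were 0.01 ± 0.09 in both comparisons. Prdx1, a peroxiredoxin, ranged from 10.68 to 11.40, with a log2 difference between cell kinds of 0.14 (unadjusted p = 0.153) for the probe set used and 0.23 (unadjusted p = 0.0288) for the other. Srxn1, which repairs peroxiredoxins, ranged from 7.52 to 8.64 and Txnrd1, the thioredoxin reductase, from 4.97 to 5.66.

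Sod2, the mitochondrial superoxide dismutase, had values of 7.06, 7.32 and 7.12, then 7.33, 7.30 and 7.65 in melanophages without and with MHC-II, and 7.09, 7.17 and 7.03, then 7.35, 7.29 and 7.17 in macrophages. The classes overlapped in melanophages and nearly touched in macrophages, with a log2 difference of 0.22 ± 0.08 (adjusted p = 0.376). Gpx1, the cytosolic peroxidase, had a log2 difference between cell kinds of -0.33 ± 0.12 (adjusted p = 0.532). Gpx4, which reduces lipid peroxides, ranged from 7.04 to 8.06, Sod1 from 10.80 to 11.26, Cat from 5.42 to 6.37 and Gpx3 from 3.22 to 3.99.

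The NADPH suppliers provide the reducing power for these enzymes, and 0 of 4 were called. Between cell kinds Pgd alone had an unadjusted p under 0.05, with a log2 difference of -0.44 ± 0.17. Between MHC-II classes 2 of 4, Tkt and Pgd, had an unadjusted p under 0.05 and were higher in MHC-II-positive cells. Tkt, the transketolase, had values of 4.07, 3.61 and 4.29, then 4.18, 4.22 and 4.25 in melanophages without and with MHC-II, and 3.94, 3.99 and 4.03, then 4.92, 5.16 and 4.08 in macrophages. Replicate 3 of the MHC-II-positive macrophages stayed near the other groups. Without that array Tkt was called (log2 difference 0.64, adjusted p = 0.0356, against 0.48 ± 0.17 and 0.391 with it). It was singled out by its Tkt value, so leaving it out had to enlarge the difference and gives it no support. Pgd, a dehydrogenase of the pentose phosphate pathway, had a log2 difference of 0.78 ± 0.24 within macrophages (adjusted p = 0.36). Taldo1 ranged from 6.17 to 7.07, and Me1 was dim.

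Within single classes the calls were fewer. Between melanophages and macrophages 0 of 41 members were called with limma in the MHC-II-negative class (0.00502% of all genes) and 0 in the MHC-II-positive class (0.015% of all genes). At an unadjusted p under 0.05 the counts were 10 (24.4%, against 5.65% of all genes) and 9 (22%, against 6.3%). Between MHC-II classes 9 members (22%) passed that unadjusted threshold within melanophages, against 5.7% of all genes, and 7 (17.1%) within macrophages, against 7.83%. For the interaction 0 members and 0% of all genes were called with limma. At the unadjusted threshold 4 members (9.76%) passed, against 4.11% of all genes: Ephx1 above 0 and Slc7a11, Gstm3 and Gstm1 below it.

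**Figure D5:**
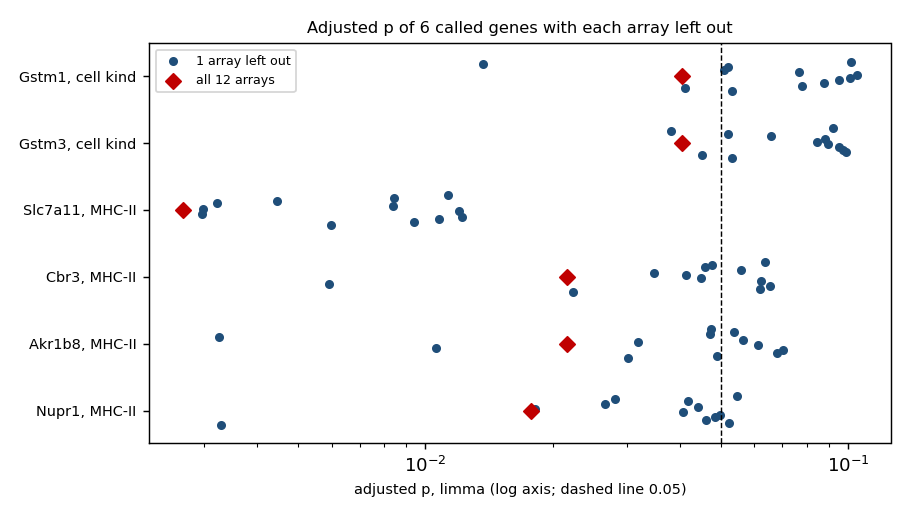
Adjusted p (horizontal log axis, limma) of the 6 called genes in their averaged comparison, with all 12 arrays (red diamonds) and with each array left out in turn (blue points, shifted vertically for legibility); the dashed line is 0.05. All 12 points of Slc7a11 are left of the line, against 10 for Nupr1, 7 each for Cbr3 and Akr1b8 and 2 each for Gstm1 and Gstm3.

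Of the other genes of the pathway, 1 was called in the averaged comparisons. Their lists too were chosen with earlier results of these data known, so the shares are descriptive. Of 16 partners and competitors of NRF2, 0 were called between the cell kinds. At an unadjusted p under 0.05, 3 (18.8%) differed, all lower in melanophages, against 7.52% of all genes. Log2 differences were below 0 for 12 of 16, and for 9019 of 19938 genes. Between MHC-II classes 1 of 16 was called, and 4 (25%) had an unadjusted p under 0.05, against 9.23% of all genes. The called gene was Bach1, the repressor that competes with NRF2, at mean log2 values of 6.12 and 6.59 in MHC-II-negative and MHC-II-positive melanophages and of 6.34 and 7.18 in the corresponding macrophages. Bach1 was 1.57-fold higher in MHC-II-positive cells (log2 difference 0.65 ± 0.12, adjusted p = 0.0321). Fits with 1 array left out are not given here for Bach1, so how firm its call is remains unknown.

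The other pathway lists held no call in either averaged comparison. Of all genes, 7.52% had an unadjusted p under 0.05 between cell kinds and 9.23% between MHC-II classes. Among 30 measured other glutathione genes, 2 (6.67%) and 5 (16.7%) did in that order, the former below the share of all genes. In both comparisons the smallest p of this list was that of Hpgds, a glutathione-dependent prostaglandin D synthase. Its log2 differences were 0.63 ± 0.13 (adjusted p = 0.166) and -0.60 ± 0.13 (adjusted p = 0.0935). Among 30 other NRF2-associated and NADPH genes 5 (16.7%) and 2 (6.67%) had an unadjusted p under 0.05, the latter below the share of all genes. Fth1, the ferritin heavy chain, was foremost between cell kinds (0.15 ± 0.05, adjusted p = 0.473) and Slc40a1, the iron exporter, between MHC-II classes (-1.04 ± 0.24, adjusted p = 0.114). Among 18 other thioredoxin, peroxiredoxin and superoxide genes 4 (22.2%) and 3 (16.7%) did, led by Prdx4, a peroxiredoxin of the endoplasmic reticulum (0.45 ± 0.13, adjusted p = 0.372), and Selenop, a selenium carrier (-0.18 ± 0.05, adjusted p = 0.22).

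Promoter sequences were read for 37 of the 43 genes from RefSeq windows of GRCm38.p6 that run from 250 bases before to 50 bases after a start site. The antioxidant response element core TGACNNNGC, on either strand, was in 10 of these 37 genes (27%), against 14% of 27025 genes, and in 10 of 47 windows, against 12.4% of 32851. The 10 genes were Gsta3, Mgst1, Gclm, Txnrd1, Prdx1, Srxn1, Sod1, Nfe2l2, Me1 and Pgd, of which 0 were called in any comparison. The windows of the 6 called genes did not hold these letters, which says nothing about sites elsewhere. Gclm, Txnrd1, Prdx1 and Srxn1 are established targets of NRF2, but whether NRF2 uses these matches was not tested. The match of Srxn1 begins 28 bases after its start site. For 5 genes the stretches are shown with the core in capitals, given 5′ to 3′ on the strand of the gene. They are at chr3:122245413-122245441 (Gclm, plus strand), chr10:82859104-82859132 (Txnrd1, plus), chr4:116685456-116685484 (Prdx1, plus), chr2:152105542-152105570 (Srxn1, plus) and chr2:75704885-75704913 (Nfe2l2, minus).
Gclm: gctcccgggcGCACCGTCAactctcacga
Txnrd1: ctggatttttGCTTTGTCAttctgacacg
Prdx1: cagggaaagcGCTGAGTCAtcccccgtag
Srxn1: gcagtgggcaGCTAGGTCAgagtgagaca
Nfe2l2: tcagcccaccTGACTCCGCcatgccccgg

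The windows were also searched for the amino acid response element core TGATGNAA, the site of ATF4, which is known to act on Slc7a11 when cystine is short. This motif was chosen after the values were seen and with Slc7a11 in mind, so its counts only describe the windows and test nothing. It was in 2 of 47 windows (4.26%), against 3.97% of 32851 windows, and these were the windows of Slc7a11 and Nupr1. The window of Slc7a11 held 2 sites on opposite strands, starting 66 and 47 bases before the start site, and 23 of all windows (0.07%) held at least 2. Nupr1 held 1 site that begins 110 bases before its start site. Both genes were called between MHC-II classes, in opposite directions, and Atf4 itself had a log2 difference of -0.21 ± 0.07 (adjusted p = 0.299). Their 250 bases before the start site are printed 5′ to 3′ on the strand of the gene with the sites in capitals, chr3:50443614-50443863 for Slc7a11 and chr7:126625471-126625720 for Nupr1, both on the minus strand.
Slc7a11: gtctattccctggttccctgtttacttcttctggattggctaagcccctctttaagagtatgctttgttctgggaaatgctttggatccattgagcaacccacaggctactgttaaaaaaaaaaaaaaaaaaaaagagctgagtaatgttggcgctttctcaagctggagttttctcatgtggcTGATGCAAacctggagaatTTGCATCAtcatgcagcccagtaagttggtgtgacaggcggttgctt
Nupr1: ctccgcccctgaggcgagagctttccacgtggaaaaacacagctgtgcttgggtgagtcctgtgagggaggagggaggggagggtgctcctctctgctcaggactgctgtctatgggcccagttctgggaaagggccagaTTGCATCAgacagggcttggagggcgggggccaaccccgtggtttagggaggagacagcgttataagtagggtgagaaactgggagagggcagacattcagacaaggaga

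Markers of other cell types also differed between the MHC-II classes beside these genes. Of 11 markers of dendritic and Langerhans cells, 3 were called higher in MHC-II-positive cells, with log2 differences of 1.26 ± 0.12 for Itgax, 1.97 ± 0.27 for Ccr7 and 1.20 ± 0.15 for Cd207. Zbtb46, Dpp4, Itgae, Xcr1, Clec9a and Epcam were dim in every group. The summed linear level of the list was 90 to 103 in MHC-II-negative and 148 to 247 in MHC-II-positive melanophages. In macrophages it was 104 to 117 without MHC-II and 249 to 389 with it.

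Of 7 T cell and innate lymphoid markers Cd2 (1.37 ± 0.13) and Il7r (1.94 ± 0.25) were called higher, and the sums were 235 to 314, 490 to 547, 128 to 154 and 415 to 914 in the same order. The other 5 were not called: Thy1 had a log2 difference of -0.62 ± 0.26 (adjusted p = 0.507), Cd3e 0.18, and Cd3g, Cd3d and Gata3 were dim, so the median of the list was 0.046. Of 4 measured monocyte markers (of 7; sums 506 to 773, 528 to 593, 651 to 1085 and 736 to 918) Ccr2 was called higher by 3.23 ± 0.20, although the gate was CCR2-negative. The other 3 were not called, with -0.41 ± 0.15 for F13a1 (adjusted p = 0.407), -0.04 for Plac8 and 0.02 for Vcan, and the median of the list was -0.012.

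Of 8 mast cell markers 0 were called. All 8 log2 differences were below 0, with a median of -0.184, as were those of 11920 of 19938 genes. At an unadjusted p under 0.05 there were 3 markers (37.5%), against 9.23% of all genes. These 3 were Cpa3 (-1.17 ± 0.52), Hdc (-0.28) and Fcer1a (-0.26), while Cma1, Fcer1a, Ms4a2 and Kit were dim. Their summed level was 92 to 380 and 91 to 233 in MHC-II-negative and MHC-II-positive melanophages, and 182 to 252 and then 86 to 129 in macrophages, so the MHC-II classes overlapped in melanophages and not in macrophages. In the melanocyte list 1 of 13 genes was called, Ednrb, lower by -1.22 ± 0.19 (median of the list -0.083, sums 386 to 424, 207 to 218, 289 to 533 and 242 to 326). These markers do not settle whether cells of such types were present. Any part of such cells in the differences of Slc7a11, Nupr1, Akr1b8 and Cbr3 was not tested.

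Between melanophages and macrophages, 2 of 11 dendritic and Langerhans markers were called lower in melanophages, Cd207 (-1.16 ± 0.15) and Itgax (-0.80 ± 0.12). The median of that list was -0.042, with 3 log2 differences above 0 and 8 below. Of 7 neutrophil markers 2 were higher and 2 lower at an unadjusted p under 0.05 (57.1%). Of 7 T cell and innate lymphoid markers 2 were higher and 1 lower (42.9%), against 7.52% of all genes. Neither list held a call in this comparison. Of 14 measured genes of the dissociation response, which cells switch on during tissue digestion, 0 were called. Log2 differences were below 0 for 13 of them, with a median of -0.205, and for 9019 of 19938 genes. At an unadjusted p under 0.05 there were 4 (28.6%), against 7.52% of all genes. The summed linear level of this list was 10604 to 12167 and 10564 to 13015 in MHC-II-negative and MHC-II-positive melanophages, and 11848 to 15282 and 13156 to 14201 in macrophages. Whether these differences bear on those of Gstm1 and Gstm3 was not tested.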

How the data were processed

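Transcripts of sorted skin cells were measured on 12 Affymetrix arrays, 4 groups with 3 arrays each. Per the labels' protocols, RNA came from a Qiagen RNeasy Plus Micro kit, and 3 to 20 ng entered a NuGEN Ovation Pico WTA amplification. The deposited log2 values are from RMA, run by the authors in oligo, per the submitters' processing notes. Sources used here do not give versions or filters. Such values compress differences of dim genes.

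Of 35556 probe sets, 21789 carried 1 gene symbol, 1621 several and 12146 none here, and the brightest probe set of each of 19938 genes was kept. All arrays entered 1 fit in limma 3.58.1 (R 4.3.3, lmFit and eBayes, 8 residual and 2.44 prior degrees of freedom) with 7 comparisons, without a filter, and Benjamini-Hochberg adjustment over all genes. The fit was tested on simulated data, but the outcome is not given here and lends the calls no support. No pair of arrays was identical, and their number limits the precision.

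The members and the lists were chosen with earlier results of these data known. Values on each array are given for members called in any comparison, for the 8 with the smallest p in each averaged comparison and for Nfe2l2, Keap1, Nqo1, Hmox1, Gclm and Slc7a11. Of each pathway list, called genes or the gene with the smallest p are named. Alternatives were filters, normalizations, probe set rules, variance models, array weights, left-out arrays and a block for runs of title numbers.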

Additional observations from a re-analysis of the deposited data

How the results depend on the processing

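No alternative turned the sign of any of the 7 called differences. The count of members called between cell kinds, 2, became 0 with centring on array medians, 1 with a trend and robust variance model, 0 without the 2 arrays farthest from their group mates (an alternative chosen after seeing the data), and 0 to 3 with 1 array left out. Between MHC-II classes the count of 4 became 2 to 5 with 1 array left out and stayed within 1.5 times under every other alternative. In the MHC-II-negative class the count of 0 between cell kinds became 1 with the filter at log2 value 5 in at least 3 arrays (28 members left) and 1 with the trend and robust model, both Gstm1, and 0 to 1 with 1 array left out. In the MHC-II-positive class it became 1 with the trend and robust model (Slc7a11, adjusted p = 0.044) and 0 to 1 with 1 array left out (Gstp1, adjusted p = 0.0421). Within melanophages the count of 0 became 1 with the filter at log2 value 5 (Cbr3) and 0 to 1 with 1 array left out. Within macrophages the count of 1 became 2 with quantile normalization again, 2 with array weights, 2 without the 2 farthest arrays, 0 with only the 2 groups compared, and 1 to 3 with 1 array left out. The interaction count was 0 throughout. Where fewer genes are tested the adjustment is milder; other causes were not tested. The labels give no replicate numbers, but numbers in the sample titles form 3 consecutive runs with 1 array of each group, and no label says what a run is. Arrays of 1 run deviated from their group means together in only 5 of 18 pairs (correlation over 0.1; range -0.248 to 0.27), against 11 of 36 pairs of different runs, and 5 of 12 arrays correlated best with one of their own run. The runs therefore were not taken as pairs. With the run as a replicate block, added after seeing the data, the count between cell kinds became 0 (Gstm1 adjusted p = 0.0821, Gstm3 0.108) and that between MHC-II classes 3, without Cbr3 (adjusted p = 0.0529), and the other counts were as without it.

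With 3 arrays a group, small differences cannot be called, and an uncalled gene is not shown to be equal. Dim genes such as Nqo1 lie where RMA values have little range, which can understate a difference. These values cannot show whether such genes differ.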
